A study of Homo sapiens with 18 samples.

Results

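Of the 58870 genes in the count table, 10 genes of a receptor system were followed through 3 human melanoma lines: the receptor-type protein tyrosine phosphatase PTPRZ1, its relatives PTPRU, PTPRK, PTPRM, PTPRG, PTPRF, PTPRD and PTPRS, and the PTPRZ1 ligands PTN and MDK. The 10 members were taken by gene symbol, and all 10 were found. They were chosen by name with their read counts in the 6 conditions already known, so the p-values below give each gene's place among all genes tested and are no independent evidence for it. RNA-seq was run on WM164, SKMEL28 and A375 cells that carried lentiviral MAFG, a small MAF transcription factor without an activation domain of its own, or lentiviral GFP as the control. Each of the 6 conditions had 3 libraries, 18 in all, and the study asked what raised MAFG does to melanoma cells. The MAFG sequence was Myc-DDK-tagged and driven, like GFP, by the constitutive EF1α promoter. The transduced cells were selected with blasticidin and grown in RPMI with serum, so the GFP controls share the vector type, the drug and the medium. SKMEL28 and A375 came from ATCC and WM164 from the Wistar collection. The labels do not say whether the libraries of a condition came from separate cultures, so the tests measure the spread between these libraries, which may be technical. In bulk RNA, fewer cells with a transcript and less of it per cell cannot be told apart.

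Receptor-type phosphatases span the membrane and remove phosphate from tyrosines of other proteins, which makes them counterparts of the receptor tyrosine kinases. PTPRZ1 carries a carbonic anhydrase-like domain outside the cell and long chondroitin sulfate chains, is best known from glia and the developing nervous system, and is silenced by the growth factors pleiotrophin (PTN) and midkine (MDK), whose binding clusters the receptor and lets phosphate build up on its substrates. PTPRG is its closest relative and shares the carbonic anhydrase-like domain. PTPRF, PTPRD and PTPRS form the LAR type, receptors for heparan and chondroitin sulfate proteoglycans and for synaptic adhesion proteins. PTPRK, PTPRM and PTPRU form the MAM-domain type, whose members are found at cell-cell contacts. Melanocytes descend from the neural crest, as glia of the peripheral nerves do.

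Total counts per library ran from 20122172 to 39025042, with a median of 31061375. Mitochondrially encoded genes took 12.6% to 29.1% of the counts of a library. MAFG itself was higher in each MAFG library than in each GFP library of its line. Its level in CPM, reads as a share of the library on a scale common to all libraries, ran from 20.1 to 32.7 in the GFP libraries and from 35.8 to 56.3 in the MAFG libraries. WM164 cells had a MAFG log2 fold change of 1.04 (adjusted p = 6.37e-08, edgeR quasi-likelihood test with Benjamini-Hochberg adjustment over all genes, as throughout). Those of SKMEL28 had 0.64 (adjusted p = 1.28e-04), and those of A375 had 0.80, which missed the threshold (adjusted p = 0.0655). In the deposited TPM values, which rate a transcript per length, MAFG averaged 2.89 with GFP and 24.5 with MAFG in WM164, 3.96 and 16.97 in SKMEL28, and 4.22 and 25.2 in A375. The A375 libraries ran from 3.94 to 4.52 TPM and from 22.4 to 28.2 TPM, without overlap. The TPM values are thus further apart than the CPM values, and the cause was not tested. The lines entered in different states. MITF, the melanocyte master regulator, averaged 439 CPM in WM164 GFP cells and 648 CPM in SKMEL28 GFP cells but 28.6 CPM in A375 GFP cells, and the receptor kinase AXL averaged 3.29, 0.589 and 633 CPM in the same order. AXL is 1 of 5 listed markers of dedifferentiated melanoma, and the list was split. EGFR (1.35, 1.15 and 156 CPM) and SOX9 (7.48, 0.270 and 42.7 CPM) were also highest in A375 GFP cells. NGFR (6.14, 11.8 and 1.72 CPM) and TNC (939, 1767 and 25.7 CPM) were lowest there. The 7 melanocyte markers summed to 4695 to 5029 CPM in WM164 GFP libraries and 2638 to 2767 CPM in WM164 MAFG libraries, where SOX10 averaged 1369 and 1328 CPM and DCT 1397 and 448 CPM. Their sums in SKMEL28 were 4789 to 5046 CPM with GFP and 4161 to 4387 CPM with MAFG. PMEL averaged 1697 and 1072 CPM there, while MLANA (510 and 524 CPM), SOX10 (892 and 910 CPM) and S100B (271 and 405 CPM) were no lower with MAFG. In A375 they summed to 35.3 to 41.6 CPM with GFP and 120 to 172 CPM with MAFG. Nearly all of that difference was SOX10, at 8.85 and 114 CPM, while MITF averaged 28.6 and 27.4 CPM and MLANA and TYR had 0 counts in each A375 library. The part of these shifts in the results below was not tested.

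The start regions of 3 members are shown because they mark where these genes begin and because they differ in motifs that the transcription factors of this system are known to read. PTPRZ1 lies at chr7:121873089-122062036 on the plus strand (GRCh38, GENCODE 44), and PTN at chr7:137227341-137343774 on the minus strand. PTPRS lies at chr19:5158495-5340812 on the minus strand. RefSeq windows of 300 bases, 250 before and 50 after a start, were matched for 9 of the 10 members, as 12 windows of 35116. MDK had no window and was not searched. The motifs sought, 4 in all, were read on either strand. CACGTG and CATGTG are the E-boxes bound by MITF, TGANTCA is the AP-1 motif, and TGCTGA is part of the MAF recognition element. CACGTG is in 7.26% of all windows, CATGTG in 11.1%, TGANTCA in 7.71% and TGCTGA in 17.3%. None of the 4 is in the windows of PTPRZ1, PTPRU, PTPRK, PTPRM or PTPRF. PTPRS holds 3 CACGTG, which begin at positions -240, -214 and -179 from its start. PTN holds 1 TGANTCA, at +43, and PTPRG and 1 of the PTPRD windows each hold 1 CATGTG at -3. The bases upstream of all annotated starts follow, 5′ to 3′ on the gene's strand in GRCh38.p14, with CACGTG in capitals, at chr7:121872911-121873088 for PTPRZ1, chr7:137343775-137343983 for PTN and chr19:5340813-5341062 for PTPRS.
PTPRZ1: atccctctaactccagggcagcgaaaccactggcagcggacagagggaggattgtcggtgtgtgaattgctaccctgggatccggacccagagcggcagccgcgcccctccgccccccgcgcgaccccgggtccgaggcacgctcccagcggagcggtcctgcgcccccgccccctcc
PTN: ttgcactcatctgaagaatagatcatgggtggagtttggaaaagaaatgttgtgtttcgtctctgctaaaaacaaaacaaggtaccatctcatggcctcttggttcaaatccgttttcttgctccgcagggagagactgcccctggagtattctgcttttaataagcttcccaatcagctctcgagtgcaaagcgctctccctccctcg
PTPRS: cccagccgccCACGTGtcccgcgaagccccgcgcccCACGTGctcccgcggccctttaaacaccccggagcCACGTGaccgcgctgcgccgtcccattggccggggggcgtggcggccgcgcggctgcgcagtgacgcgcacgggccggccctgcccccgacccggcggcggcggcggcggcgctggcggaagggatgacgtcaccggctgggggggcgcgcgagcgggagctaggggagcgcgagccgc
PTN, AP-1 motif: agggcgtaatTGAGTCAa
The AP-1 motif of PTN lies inside the transcript, at chr7:137343684-137343701, and is in capitals in the fourth run. A match here is a match of letters and no binding site, and the absence of a match concerns these windows alone.

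Per length, in TPM, which is a transcript's share of all transcripts, PTPRS, PTPRA and PTPRG led the family in WM164 and SKMEL28 GFP cells. In A375 GFP cells PTPRF led it, with PTPRA next. WM164 GFP cells were led by PTPRS at 47.8 TPM ± 7.99 (SD, n = 3), with PTPRA at 31.6 TPM, PTPRG at 27.9 TPM and PTPRZ1 at 23.3 TPM ± 0.860. PTPRZ1 was rank 4 of 20 receptor-type phosphatases there, with 12.9% of their summed TPM. SKMEL28 GFP cells were led by PTPRA at 37.7 TPM, PTPRG at 35.0 TPM and PTPRS at 33.6 TPM, while PTPRZ1 stood at 5.77 TPM ± 1.96, or 3.03% of the sum. A375 GFP cells were led by PTPRF at 55.7 TPM ± 6.70, which made up 35.0% of the sum, and PTPRZ1 was at 0.223 TPM, or 0.140%. With MAFG, PTPRZ1 was at 8.21 TPM ± 1.0 in WM164 (3.96% of the sum) and at 0.330 TPM ± 0.233 in SKMEL28 (0.209%). The sum over all 20 ran from a mean of 153 TPM in A375 MAFG cells to 207 TPM in WM164 MAFG cells. PTPRA, a broadly expressed member of the family, stood between 29.2 and 43.8 TPM in the 6 conditions. The leukocyte receptor PTPRC (CD45) had at most 1 count in any library.

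**Figure D1:**
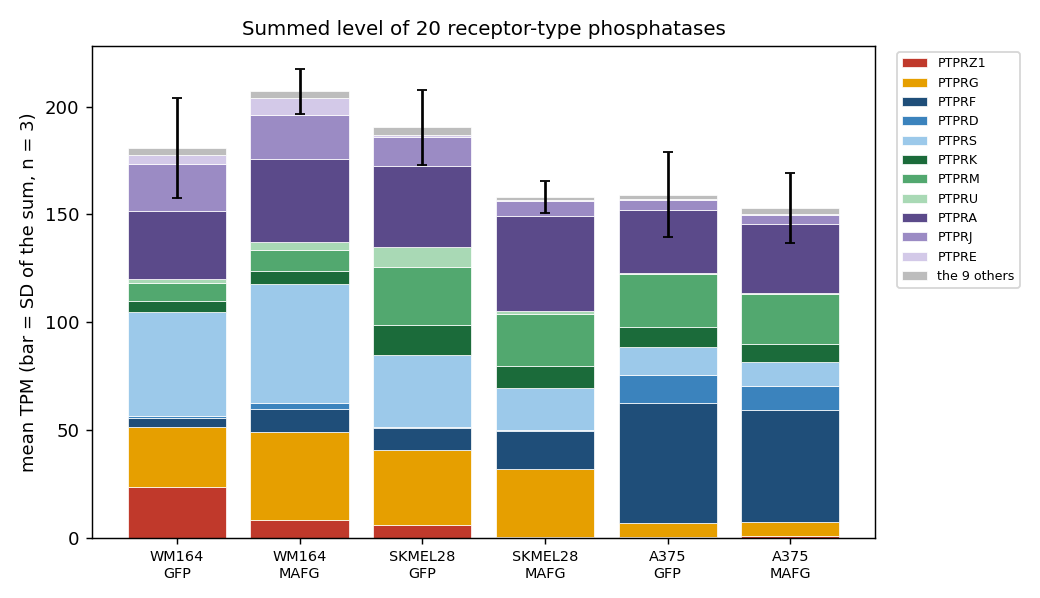
Mean TPM of 20 receptor-type phosphatases in each condition, stacked by gene from 0, with the SD of the summed TPM as error bars (n = 3). PTPRZ1, at the foot of each bar, is 23.3 TPM in WM164 GFP cells and 0.330 TPM in SKMEL28 MAFG cells, and PTPRF takes 35.0% of the A375 GFP bar.

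PTPRZ1 fell with MAFG in WM164 and far more in SKMEL28, the lines in which it was expressed. The WM164 GFP libraries held 64.3, 79.3 and 65.1 CPM and the MAFG libraries 28.9, 29.7 and 25.5 CPM. In SKMEL28 the GFP libraries held 18.9, 16.8 and 17.4 CPM, from 342 to 568 reads, and the MAFG libraries 0.834, 0.789 and 0.976 CPM, from 22 to 26 reads. The groups did not overlap in either line. The log2 fold change was -1.31 ± 0.09 (SE) in WM164, 2.49-fold lower, with an adjusted p of 2.06e-09. In SKMEL28 it was -4.35 ± 0.17, 20.4-fold lower, with an adjusted p of 4.22e-11, and PTPRZ1 ranked 9 by p of 15523 genes tested. A375 cells had little PTPRZ1 to begin with, at 0.573, 1.28 and 0.670 CPM with GFP, and 0.329, 1.06 and 0.907 CPM with MAFG, so the ranges overlapped. The A375 estimate was -0.13 with a 95% interval from -1.31 to 1.06 and changed sign when 1 library was left out (0.30 without the second GFP library, 0.25 without the first MAFG library). At 13 to 47 reads per library, no change in A375 within this interval can be excluded. The smallest change that would have been called was not determined. SKMEL28 MAFG cells, at a mean of 0.866 CPM, and A375 GFP cells, at 0.840 CPM, stood side by side at the low end.

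**Figure D2:**
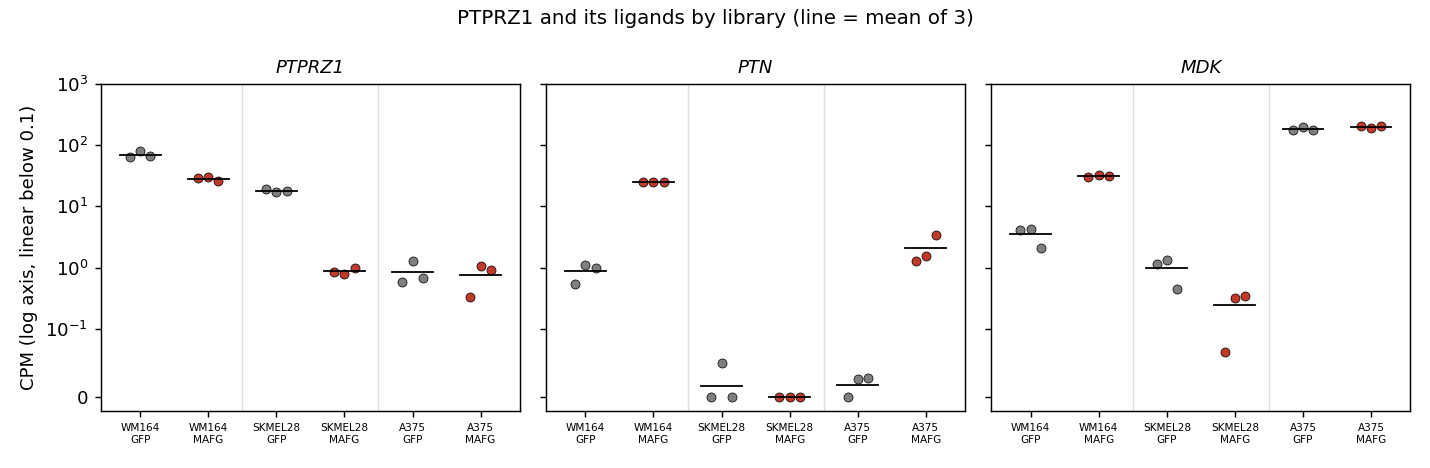
CPM of PTPRZ1, PTN and MDK in each of the 18 libraries (grey GFP, red MAFG, black line the mean of 3) on a log axis that is linear below 0.1 CPM. PTPRZ1 is lower with MAFG in WM164 and SKMEL28, PTN is near 0 except in both WM164 conditions and A375 MAFG cells, and MDK moves up in WM164, down in SKMEL28 and stays near 200 CPM in A375.

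The ligands moved against their receptor in WM164. PTN, a secreted heparin-binding growth factor, stood at 0.535, 1.09 and 0.988 CPM in the WM164 GFP libraries, from 15 to 33 reads, and at 24.6, 25.3 and 24.7 CPM in the MAFG libraries. Each MAFG library lay far above each GFP library, and the rise was 28.3-fold (log2 4.82 ± 0.16, adjusted p = 2.19e-13). In A375 the GFP libraries held 0, 1 and 1 read and the MAFG libraries 50, 59 and 146 reads, or 1.26, 1.56 and 3.40 CPM. With 2 reads in the GFP group and 255 in the MAFG group, the ratio per effective library size was 118, with an exact 95% interval from 32.2 to 977 that covers counting error only, and PTN was called as higher (adjusted p = 0.00350). The third MAFG library held more reads than the others, and the call held in each of the 6 fits that left out 1 A375 library. PTN passed the filter for low counts through its MAFG libraries alone. Neither the call nor these fits therefore add support beyond the read counts. SKMEL28 held 1 read of PTN in all its 6 libraries together, so no fold is given. Beside the PTN rise in A375, the neural crest factor SOX10 went from a mean of 8.85 CPM to 114 CPM and the glial and melanocytic S100B from 0.0709 to 0.850 CPM, while the pigment genes MLANA and TYR had no reads. The pigment gene PMEL had 0 to 12 reads with GFP and 3 to 22 with MAFG. NGFR was lower, at a mean of 1.72 CPM with GFP and 1.01 CPM with MAFG. Whether these moved with PTN in the same cells was not tested.

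MDK, the other ligand of the family, took a different course in each line. In WM164 it stood at 4.14, 4.31 and 2.09 CPM with GFP and at 30.4, 31.9 and 30.7 CPM with MAFG. That is 8.70-fold higher (log2 3.12 ± 0.16, adjusted p = 4.82e-11), without overlap. In SKMEL28 it stood at 1.13, 1.33 and 0.449 CPM with GFP, from 13 to 34 reads, and at 0.0667, 0.323 and 0.338 CPM with MAFG, from 2 to 9 reads. The SKMEL28 groups did not overlap, at a log2 fold change of -1.98 ± 0.64 (adjusted p = 0.0280), but the call rests on few reads. It was lost without the first or second GFP library or the first MAFG library, with adjusted p-values of 0.121, 0.114 and 0.104. A375 made far more MDK than either other line, at 174, 195 and 175 CPM with GFP and 204, 190 and 200 CPM with MAFG. Those ranges overlapped, and the A375 difference was 0.12 with a 95% interval from -0.06 to 0.30. Per length, WM164 GFP cells held 23.3 TPM of PTPRZ1 beside 0.343 TPM of PTN and 3.19 TPM of MDK. WM164 MAFG cells held 8.21 TPM of the receptor beside 10.7 TPM of PTN and 34.6 TPM of MDK, so the order of receptor and ligands turned over. A375 GFP cells held 271 TPM of MDK beside 0.223 TPM of PTPRZ1. MDK shares 49 exon bases (2.25%) with CHRM4 on the opposite strand.

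The LAR-type receptors PTPRF and PTPRD were higher with MAFG in WM164 and SKMEL28, and the third of the type, PTPRS, was not. PTPRF stood at 41.8, 43.7 and 41.7 CPM with GFP and 84.0, 92.8 and 88.5 CPM with MAFG in WM164, a 2.08-fold rise (log2 1.06 ± 0.06, adjusted p = 4.66e-10). In SKMEL28 it stood at 68.3, 75.5 and 67.0 CPM with GFP and at 136, 139 and 124 CPM with MAFG, a log2 rise of 0.92 ± 0.07 that passed the adjusted p (4.69e-08) and was under the 2-fold limit. The groups were apart in both lines. A375 cells, with the most PTPRF, held 374 to 421 CPM with GFP and 374 to 497 CPM with MAFG, which overlapped.

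PTPRD, a receptor of neuronal and epithelial cells, was low in both melanocytic lines and rose in both. In WM164 it stood at 7.07, 9.09 and 7.90 CPM with GFP and at 15.7, 16.7 and 18.8 CPM with MAFG (log2 1.09 ± 0.12, adjusted p = 1.10e-06). In SKMEL28 the values were 0.999, 0.935 and 1.38 CPM, from 19 to 40 reads, against 2.24, 2.58 and 2.18 CPM (log2 1.07 ± 0.31, adjusted p = 0.0165). Neither pair of groups overlapped. With 1 added on the TPM scale the WM164 change was 0.87, under the limit. The SKMEL28 call was lost without the first or second GFP library or the second MAFG library, with adjusted p-values of 0.0612, 0.0501 and 0.0559. A375 held 64.3 to 76.6 CPM with GFP and 66.3 to 77.4 CPM with MAFG.

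PTPRS, the receptor with 3 CACGTG in its start region, led the members per length in WM164 GFP cells and did not pass the test there, at 388, 431 and 374.97 CPM with GFP and 422, 412 and 395 CPM with MAFG (log2 0.04, 95% interval from -0.07 to 0.16). In SKMEL28 it fell, from 193, 202 and 190 CPM to 131, 136 and 120 CPM, without overlap. That fall was 1.51-fold (log2 -0.59 ± 0.06, adjusted p = 2.11e-06), under the 2-fold limit. A375 held 75.2 to 89.1 CPM with GFP and 67.0 to 89.7 CPM with MAFG.

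Of the MAM-domain receptors, PTPRU split the lines and the others moved little. PTPRU stood at 17.5, 14.1 and 15.1 CPM with GFP and at 23.5, 26.2 and 24.0 CPM with MAFG in WM164, a rise of 0.66 ± 0.10 on the log2 scale (adjusted p = 3.83e-05, under the 2-fold limit). In SKMEL28 it went the other way, from 42.5, 46.8 and 43.3 CPM to 7.98, 9.04 and 9.61 CPM. That was 4.98-fold lower (log2 -2.32 ± 0.09, adjusted p = 6.93e-11), and PTPRU ranked 13 by p of 15523 genes. The groups were apart in both lines. A375 held 0.964 to 1.196 CPM with GFP and 0.583 to 0.935 CPM with MAFG, which did not overlap but did not pass the test (log2 -0.42 ± 0.45, adjusted p = 0.997).

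PTPRM and PTPRK, which bind like molecules on neighboring cells, stayed near their GFP levels. PTPRM was lower with MAFG by 0.24 on the log2 scale in WM164 (adjusted p = 0.0145) and by 0.20 in SKMEL28 (adjusted p = 0.0196). The values were 48.8 to 53.4 against 41.3 to 45.1 CPM in WM164 and 111 to 123 against 96.8 to 104 CPM in SKMEL28. On the TPM scale the WM164 change had the other sign, at 0.21, where the median over all genes was 0.14. PTPRK held 29.6 to 36.8 CPM with GFP and 31.0 to 35.2 CPM with MAFG in WM164, and 54.4 to 61.2 against 46.0 to 56.1 CPM in SKMEL28, and it passed the test in neither (log2 0.02 and -0.18, adjusted p = 0.903 and 0.0897).

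PTPRG, the nearest relative of PTPRZ1, did not follow it. In WM164 it rose from 306, 322 and 297 CPM to 388, 393 and 391 CPM, without overlap, by 1.27-fold (log2 0.34 ± 0.05, adjusted p = 4.73e-05, under the 2-fold limit). In SKMEL28 it stood at 230, 259 and 243 CPM with GFP and 237, 257 and 258 CPM with MAFG, and the difference was 0.04 with a 95% interval from -0.08 to 0.16. PTPRG shares 1343 exon bases (9.18%) with PTPRG-AS1 on the opposite strand, and the use of strand in the counting is not given in the sources used here. PTPRG-AS1 had 102 to 227 reads in the WM164 libraries, where PTPRG had 7528 to 12669.

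**Figure D3:**
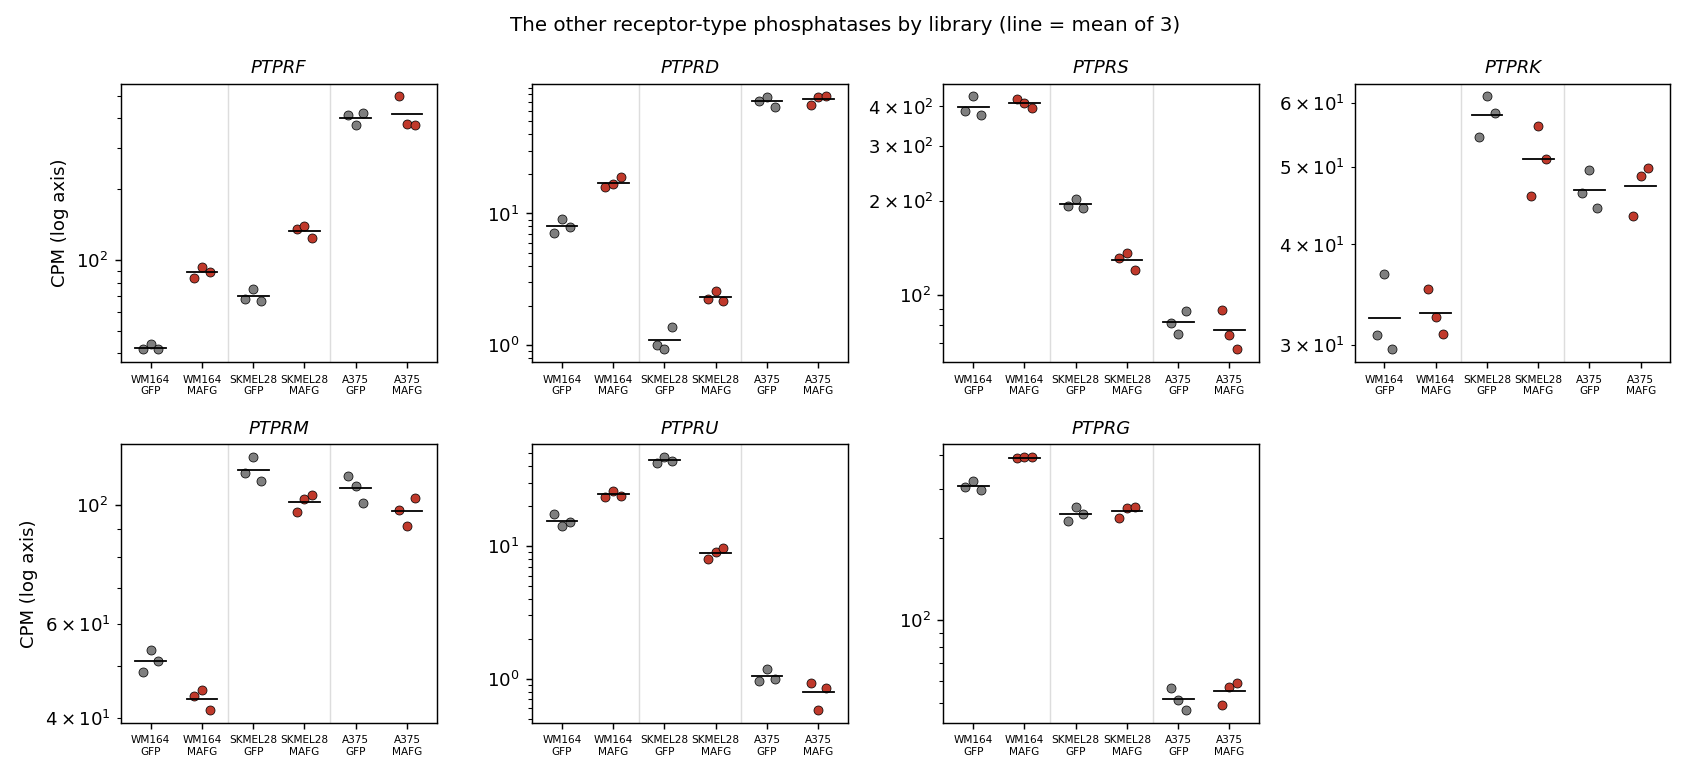
CPM of the 7 other receptors in each of the 18 libraries (grey GFP, red MAFG, black line the mean of 3), each panel with its own log axis. PTPRF and PTPRD are higher with MAFG in WM164 and SKMEL28, PTPRU is higher in WM164 and lower in SKMEL28, and PTPRS is lower in SKMEL28.

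Counted together, 5 of the 10 members were called in WM164, where a call is an adjusted p of at most 0.05 with at least a 2-fold change: PTN, MDK, PTPRF and PTPRD higher and PTPRZ1 lower. Of all 15919 genes tested in WM164, 6.94% were called. In SKMEL28 4 of the 9 members tested were called, PTPRD higher and PTPRZ1, PTPRU and MDK lower, where 4.74% of 15523 genes were. In A375 1 of 10 was called, PTN, where 0.665% of 15779 genes were. The GFP and MAFG libraries were apart for 8 members in WM164, for 7 in SKMEL28 and for 2 in A375, against 43.4%, 43.0% and 12.8% of all genes tested. The members' medians on the log2 scale were 0.50 (WM164), -0.20 (SKMEL28) and 0.03 (A375), beside medians of -0.00, -0.01 and -0.00 over all genes tested. Nothing is read from these shares, because the members were named with such values known.

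**Figure D4:**
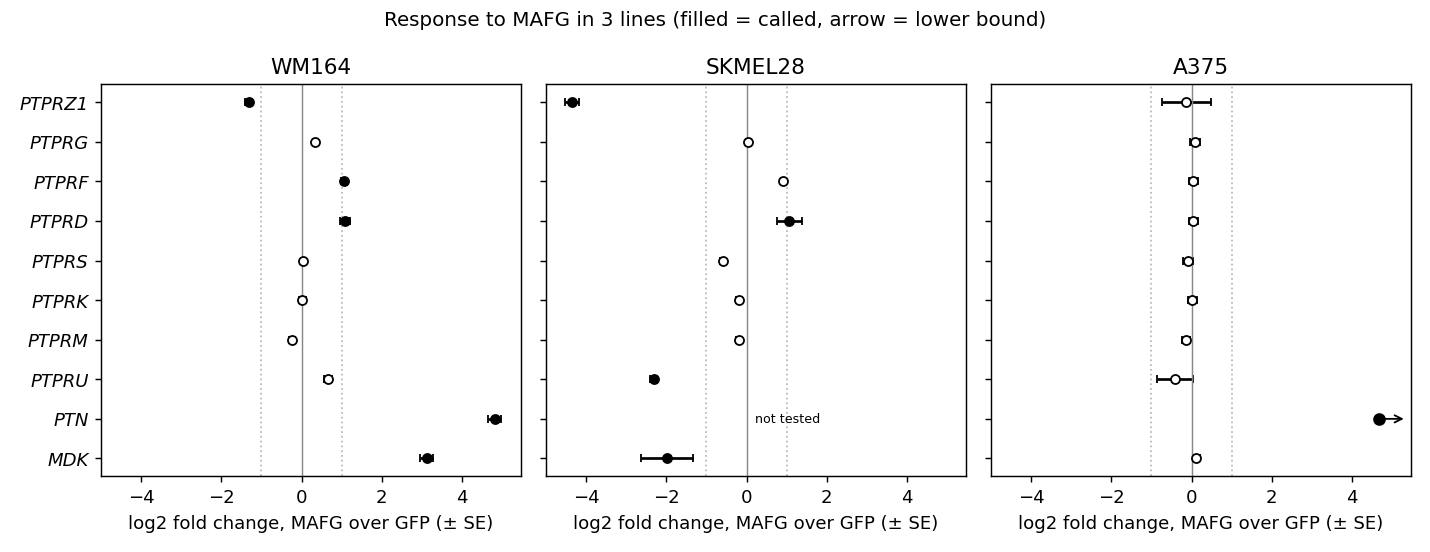
Log2 fold change of MAFG over GFP for each member in the 3 lines, with the SE from the fit over all genes as bars, filled circles for called genes and dotted lines at the 2-fold limit. The arrow at PTN in A375 starts at its lower bound of 4.68, PTN was not tested in SKMEL28, and PTPRZ1 is at -1.31 in WM164 and -4.35 in SKMEL28.

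The difference between lines was tested in a single fit of all 18 libraries. WM164 and SKMEL28 differed in the response of 3 of 10 members, where 5.10% of 18767 genes were called. PTPRU differed by 2.98 ± 0.17 on the log2 scale (adjusted p = 1.79e-10), since it was higher with MAFG in WM164 and lower in SKMEL28. MDK differed by 5.09 ± 0.51 (adjusted p = 5.59e-07), again with opposite directions. PTPRZ1 differed by 3.04 ± 0.31 (adjusted p = 8.01e-07), with the larger fall in SKMEL28, and this call was lost on the TPM scale, where 1 or 0.1 added to each value gave adjusted p-values of 0.0825 and 0.0728. PTPRF and PTPRD, which were higher in both, differed by 0.14 (95% interval from -0.12 to 0.41) and 0.03 (from -0.44 to 0.51). PTPRS differed by 0.64 ± 0.13 (adjusted p = 0.00194), under the 2-fold limit.

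Against A375, WM164 differed in 5 members, where 4.39% of genes were called, and SKMEL28 in 4, where 4.20% were. WM164 minus A375 was 2.998 ± 0.24 for MDK (adjusted p = 3.02e-08), 1.02 ± 0.13 for PTPRF (adjusted p = 2.23e-05) and 1.04 ± 0.16 for PTPRD (adjusted p = 1.49e-04). It was 1.06 ± 0.23 for PTPRU (adjusted p = 0.00378) and -1.18 ± 0.36 for PTPRZ1 (adjusted p = 0.0455). The PTPRZ1 call of this pair was lost in 10 of the 12 fits that left out 1 library, with adjusted p-values of up to 0.185. PTPRU, PTPRF and PTPRD lay close to the 2-fold limit, and each fell under it in 3, 4 and 4 of those 12 fits. SKMEL28 minus A375 was -4.22 ± 0.42 for PTPRZ1 (adjusted p = 6.44e-07), -1.91 ± 0.23 for PTPRU (adjusted p = 9.22e-06), -2.09 ± 0.51 for MDK (adjusted p = 0.0109) and 1.007 ± 0.22 for PTPRD (adjusted p = 0.00428). The MDK call was lost without the first SKMEL28 GFP library (adjusted p = 0.0553) or the first SKMEL28 MAFG library (adjusted p = 0.0559). PTPRD came under the limit in 5 of the 12 fits. On the TPM scale MDK and PTPRD no longer passed (adjusted p of 0.175 and 0.340 with 1 added), nor did PTPRU between WM164 and A375 (0.195). With 0.1 added, PTPRZ1 between WM164 and A375 (0.102) and PTPRU between SKMEL28 and A375 (0.0539) were lost as well. The 3 pairs of lines share libraries, so these values are not independent of each other. No difference is given for PTN, whose level in a group of SKMEL28 or A375 was at the floor.

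In GFP cells the members were ordered differently by line, which is a description of the lines as they were grown here. PTPRZ1 fell from WM164 (69.6 CPM) through SKMEL28 (17.7 CPM) to A375 (0.840 CPM), and PTPRS from 398 through 195 to 81.8 CPM. PTPRG had the same order at 308, 244 and 51.7 CPM, but on the TPM scale it was lower in WM164 than in SKMEL28 (-0.32, where the median over all genes was -0.42). Each step of these 3 genes passed the test, with the smallest, PTPRG between WM164 and SKMEL28, at 0.34 ± 0.08 on the log2 scale (adjusted p = 0.00106). Without the second WM164 GFP library, PTPRS between WM164 and SKMEL28 came under the 2-fold limit, at 0.97 instead of 1.03. PTPRU was highest in SKMEL28 (44.2 CPM), then WM164 (15.5 CPM), then A375 (1.05 CPM). PTPRF (403 CPM), PTPRD (70.7 CPM) and MDK (181 CPM) were highest in A375. PTPRD was lowest in SKMEL28, at 1.10 CPM, and PTPRF lowest in WM164, at 42.4 CPM. PTPRM stood at 116 CPM in SKMEL28 and 108 CPM in A375, and these neighbors did not pass the test (0.11, 95% interval from -0.03 to 0.25, adjusted p = 0.179). PTPRM was lowest in WM164, at 51.1 CPM. PTN passed a floor of 3 reads per library only in WM164 GFP cells, at 0.873 CPM. Of the 10 members, 7 were called between WM164 and SKMEL28, 9 between WM164 and A375 and 7 between SKMEL28 and A375, where 28.7%, 46.7% and 43.8% of genes were called.

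Among the 12 receptor-type phosphatases outside the member list, PTPRE, a short-ectodomain relative of PTPRA, was higher with MAFG in WM164 (log2 1.15 ± 0.07, adjusted p = 9.87e-10), at 26.8 CPM ± 1.27 with GFP and 59.3 CPM ± 2.67 with MAFG. It was the only call among the 4 that could be tested in WM164, where 6.94% of all genes were called. In SKMEL28, where 4.74% of all genes were, 3 of 6 tested were called, all lower: PTPRR (log2 -1.70, adjusted p = 1.23e-04), which acts on MAP kinases, PTPRH (-1.46, adjusted p = 0.00189) and the endothelial PTPRB (-1.66, adjusted p = 0.00294). In SKMEL28 GFP cells these averaged 4.48, 2.93 and 2.57 CPM. Of 9 tested in A375, 0 were called by edgeR and 0 by DESeq2, and 2 had an unadjusted p under 0.05. PTPRA was at 0.08, 0.09 and 0.11 in WM164, SKMEL28 and A375 and passed the test in none.

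Other receptors of PTN and MDK were called in each line, with LRP2 higher in WM164 and SKMEL28 and ITGA4 called in opposite directions there. Of 14 listed, 3 of 13 tested were called in WM164 (6.94% of all genes), all higher: NRP1 (neuropilin 1, log2 3.44 ± 0.09, adjusted p = 7.92e-15), the endocytic receptor LRP2 (2.61 ± 0.11, adjusted p = 2.44e-12) and the integrin subunit ITGA4 (1.19 ± 0.05, adjusted p = 1.03e-11). In SKMEL28 3 of 13 tested were called (4.74% of all genes). LRP2 was higher (2.73 ± 0.13, adjusted p = 4.85e-10), and the syndecan SDC1 (-2.22 ± 0.21, adjusted p = 8.93e-07) and ITGA4 (-1.04 ± 0.09, adjusted p = 5.41e-07) were lower. In A375 2 of 11 tested were called (0.665% of all genes), and ITGB3 (5.03 ± 0.60, adjusted p = 0.00260) and SDC3 (2.51 ± 0.22, adjusted p = 2.38e-04) were higher. LRP2 had no reads in A375. ALK, a kinase activated downstream of both ligands, averaged 3.51 CPM in WM164 GFP cells and 2.20 CPM in SKMEL28 GFP cells, with log2 fold changes of -0.30 (adjusted p = 0.334) and -0.26 (adjusted p = 0.522). In A375 ALK had 0 reads in each GFP library and 8 to 19 in the MAFG libraries, a mean of 0.303 CPM, and was too low to be tested within the line. ALK entered the fit of all 18 libraries through its levels in the other lines, and its A375 GFP group was at 0. No difference of its response between lines is therefore given.

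The extracellular partners of PTPRZ1 and PTPRG, adhesion molecules of the immunoglobulin family and the tenascins, changed in both directions. Of 11 listed, 6 of 8 tested were called in WM164, where 6.94% of all genes were. NCAM1 (log2 -1.61 ± 0.07, adjusted p = 5.20e-12), CNTN1, which is the contactin that PTPRZ1 binds on neurons (-1.04 ± 0.16, adjusted p = 8.49e-05), and CNTN4 (-2.91 ± 0.57, adjusted p = 7.00e-04) were lower. NRCAM (1.95 ± 0.12, adjusted p = 6.44e-10) and NFASC (1.74 ± 0.18, adjusted p = 7.43e-07) were higher. CNTN3, with no reads in the GFP libraries, was at least 10.7-fold higher over a floor of 3 reads per library (adjusted p = 1.76e-05). It passed the filter for low counts through its MAFG libraries alone, so this p-value adds no support beyond the reads. In SKMEL28 1 of 5 tested was called (4.74% of all genes), NFASC, which was lower (-2.50 ± 0.58, adjusted p = 0.00386). TNC, the matrix glycoprotein tenascin C, was higher in each line: by 0.81 ± 0.05 in WM164 (adjusted p = 1.55e-09), by 0.78 ± 0.06 in SKMEL28 (adjusted p = 5.69e-08) and by 1.88 ± 0.11 in A375 (adjusted p = 2.92e-05). It was over the 2-fold limit in A375 alone, where its level was lowest, at 25.7 CPM with GFP and 94.7 CPM with MAFG.

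Of the 9 substrates and intracellular partners of PTPRZ1, 0 were called by edgeR and 0 by DESeq2 in each line, while 5, 6 and 1 had an unadjusted p under 0.05 in WM164, SKMEL28 and A375. Without regard to size, 4 passed the adjusted p in WM164, 6 in SKMEL28 and 0 in A375, where 31.8%, 29.9% and 0.843% of all genes did. CTNNB1 (beta-catenin), a substrate of PTPRZ1, was lower by 0.46 in WM164 (adjusted p = 2.39e-06) and by 0.45 in SKMEL28 (adjusted p = 8.31e-05), and was at -0.02 in A375. Of the 19 partners of the LAR type, 3 of 13 tested were called in WM164 (6.94% of all genes), all higher. They were IL1RAP (1.05 ± 0.05, adjusted p = 3.77e-11), SLITRK6 (1.14 ± 0.11, adjusted p = 1.74e-07) and NTRK3 (adjusted p = 2.14e-05). NTRK3 had 0 to 2 reads in the GFP libraries and 26 to 53 in the MAFG libraries. It passed the filter for low counts through the latter alone, so its p-value adds no support beyond the reads. In SKMEL28 2 of 12 tested were called (4.74% of all genes). SLITRK2 was higher (1.19 ± 0.09, adjusted p = 8.51e-08) and the liprin PPFIA4 lower (-1.08 ± 0.18, adjusted p = 2.59e-04). In A375 0 of 17 tested were called by edgeR and 0 by DESeq2, and 3 had an unadjusted p under 0.05.

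The genes whose levels most resembled PTPRZ1 over the 18 libraries were found by Pearson's correlation of log2 CPM among 18766 genes. They were CELSR1 (r = 0.974), ARID5B (0.961), C17orf77 (0.959), ACSF2 (0.958) and SHANK3 (0.958). C17orf77 was low, at a mean of 1.34 CPM in WM164 GFP cells and 0 CPM in both A375 conditions. CELSR1 averaged 157 and 125 CPM in WM164 GFP and MAFG cells, 73.4 and 22.4 CPM in SKMEL28, and 23.7 and 21.3 CPM in A375. Genes at the other end included FTSJ1 (-0.973), VGLL3 (-0.962), GRHPR (-0.959) and GOLGA3 (-0.957). The 18 points are 6 conditions of 3 lines, so libraries of a line share most of a gene's level, and no test is given. Among the members, PTPRS (0.923), PTPRU (0.786) and PTPRG (0.763) went with PTPRZ1 on this measure, and PTPRF (-0.895) and PTPRM (-0.694) against it. Rank correlation named other genes: 0 of the 5 highest and 1 of the 5 lowest were shared. Pearson's correlation of log2 TPM with 1 added shared 1 of the 5 highest and 2 of the 5 lowest.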

How the data were processed

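RNA-seq of 18 libraries, 3 per condition, was analysed. Per the labels and the study's methods, the authors trimmed read pairs with cutadapt 1.8.1, aligned them to GRCh38 with STAR 2.7.7a and deposited raw counts per gene from uniquely mapped reads. The authors also deposited TPM values, for which their processing notes name RSEM 1.3.0. The labels and the methods name different library kits, of which 1 keeps strand, and whether counting used strand is not given in the sources used here.

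Groups were taken from the labels. Counts were tested as deposited with edgeR 4.0.16 (filterByExpr, TMM, quasi-likelihood F test, R 4.3.3), within each line for MAFG against GFP and over all 18 libraries for levels in GFP cells and for differences of the response. A gene was called at an adjusted p of at most 0.05 and at least a 2-fold change, with the adjustment over all genes tested. A gene that is low in 1 group can pass the count filter through the other group alone. Its p-value then adds no support beyond its reads. SEs were taken from the fits. CPM used TMM over 18 libraries, and 3 counts per library were the floor for folds. Depth was 20122172 to 39025042 counts, and the precision of genes with few reads is limited by it. Alternatives were DESeq2 1.42.0, other filters and scaling, TPM with limma 3.58.1, a replicate block, and leaving out each library. Figures were drawn with matplotlib 3.10.9.

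The members and gene lists were chosen with earlier results of these data known. Every member was named, with the genes called in a line from each list (at most 6), the 5 genes at each end of the correlation with PTPRZ1, and MAFG, MITF and AXL. PTPRA, PTPRC, ALK, TNC, CTNNB1, SOX10, S100B, PMEL, DCT, MLANA, TYR, EGFR, NGFR, SOX9 and PTPRG-AS1 were added after their values were seen. Same-numbered libraries did not deviate together (correlations from -0.04 to 0.03), so the numbers were not taken as pairs. The replicates differed by more than counting noise, at a chi-square per gene of 5.90 to 96.7 over 18 pairs. Of the genes least like PTPRZ1, 1 is not reported here.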

Additional observations from a re-analysis of the deposited data

Results flagged for a closer look

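The response to MAFG differed between lines for 5 members, by the test of the difference itself in the fit of 18 libraries (edgeR, adjusted p of at most 0.05 and at least 2-fold). WM164 minus SKMEL28 was 3.04 for PTPRZ1, 2.98 for PTPRU and 5.09 for MDK on the log2 scale. WM164 minus A375 was -1.18 for PTPRZ1, 1.06 for PTPRU, 1.02 for PTPRF, 1.04 for PTPRD and 2.998 for MDK. SKMEL28 minus A375 was -4.22 for PTPRZ1, -1.91 for PTPRU, 1.007 for PTPRD and -2.09 for MDK. The values of WM164 minus A375 other than that of MDK, and those of PTPRD and MDK for SKMEL28 minus A375, lose their call when some single libraries are left out.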

How the results depend on the processing

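Directions of the members' large changes held under the alternatives run, while counts of called genes moved with the filter and the scale. Genes with few reads (PTN and MDK in SKMEL28, PTPRZ1, PTPRU and PTN in A375) are limited by depth, and the cause of the shifts below was not tested. With at least 10 counts in every library, which tests fewer genes, 734 genes were called in WM164 (1105 as reported) and 64 in A375 (105), while SKMEL28 stayed within 1.5 times of 736. The differences of the response then gave 510, 3.8e+02 and 366 (957, 823 and 788) for WM164 minus SKMEL28, WM164 minus A375 and SKMEL28 minus A375, and the levels in GFP cells 2639, 4607 and 4292 (5389, 8756 and 8215). In A375, 216 genes were called without a filter, 173 with DESeq2 and 311 in the fit of all 18 libraries.

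On the TPM scale with 1 and 0.1 added, 384 and 617 genes were called in WM164, 226 and 411 in SKMEL28, and 19 and 15 in A375. The median over all genes moved to 0.14 and 0.16, -0.14 and -0.17, and -0.10 and -0.12 there. In WM164 the higher and lower calls were then 314 and 70, and 500 and 117 (786 and 319 as reported), and in SKMEL28 44 and 182, and 88 and 323 (273 and 463). For WM164 minus SKMEL28 the response split 674 and 82, and 978 and 120 (673 and 284), around medians of 0.26 and 0.33, and the levels 701 and 3044, and 1183 and 4213 (2861 and 2528), around -0.42 and -0.54. For WM164 minus A375 the response gave 433 calls with 1 added and split 338 and 95, and 451 and 166 (415 and 408), around 0.21 and 0.26, and the levels gave 5722 and split 1811 and 3911, and 2618 and 4821 (4886 and 3870), around -0.35 and -0.46. For SKMEL28 minus A375 the response gave 254 and 440 calls and the levels 4784 with 1 added.

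Of the members, 2 were called in SKMEL28 on either TPM scale, where PTPRD and MDK were under the TPM minimum, and 0 in A375 there and with 10 counts in every library, where PTN was not tested. With 0.1 added, 3 were called for WM164 minus A375 and 2 for SKMEL28 minus A375. Those 2 were PTPRZ1 and PTN, which was not called in the count fit (adjusted p = 0.132) and has a group at the floor. Small differences changed sign on the TPM scale (1 and 0.1 added): PTPRM in WM164 (0.21, 0.24), PTPRG in SKMEL28 (-0.15, -0.15), and PTPRK (-0.19, -0.21), PTPRF (-0.10, -0.10) and PTPRD (-0.22, -0.24) in A375. So did the response of PTPRM for WM164 minus SKMEL28 (0.40, 0.43) and minus A375 (0.30, 0.32), and the level of PTPRG for WM164 minus SKMEL28 (-0.32, -0.33). The PTPRK response for WM164 minus A375 was -0.0065 without a filter.

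Leaving out 1 library gave 55 to 153 genes in A375, 1051 to 1103 in WM164 and 678 to 726 in SKMEL28. Members called ran from 2 to 4 in SKMEL28, for WM164 minus A375 and for SKMEL28 minus A375. Differences near 0 changed sign: PTPRK (-0.048 to 0.12) and PTPRS (-0.0065 to 0.10) in WM164, PTPRG (-0.00037 to 0.080) in SKMEL28, and PTPRZ1 (-0.44 to 0.30), PTPRK (-0.040 to 0.094), PTPRF (-0.082 to 0.094) and PTPRD (-0.014 to 0.14) in A375. The responses of PTPRM (-0.076 to 0.00043) and PTPRD (-0.17 to 0.13) for WM164 minus SKMEL28, PTPRK (-0.056 to 0.10) for WM164 minus A375 and PTPRG (-0.13 to 0.0086) for SKMEL28 minus A375 did so too.

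With the replicate number as a block, 1056 genes were called in WM164, 716 in SKMEL28 and 64 in A375, and the responses gave 909, 760 and 721 and the levels 5294, 8673 and 8143, in the order of the pairs above. The numbers did not pair the samples, and the block left the count of members called the same in each of the 9 comparisons.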
